A study of Mus musculus with 27 samples.

Results

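Cardiac fibroblasts of 1-year-old mice were compared with cardiac fibroblasts of 14-week-old mice across all genes. The comparison holds 2 samples of each age, numbered 4 and 5 at 1 year and 4 and 6 at 14 weeks, which is 4 of the 27 samples of the study and 4 of its 12 fibroblast samples. All animals were C57Bl/6 mice without a transgene or a treatment in the sample labels, and the fibroblasts were sorted by flow cytometry as PDGFRα-expressing cells from ventricles digested with liberase, after removal of atria and valves. The other fibroblast samples were neonatal (3 samples), 4 weeks (3 samples) and 18 months old (2 samples, called 1.5 years here), and 15 whole heart samples covered the same ages. The labels do not say how many hearts went into each sample, so the spread between samples may in part be technical. The p values rest on a spread estimated over all 12 fibroblast samples, of which 4 belong to the 2 ages compared.

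Cardiac fibroblasts make and turn over the collagen-rich matrix between the heart muscle cells. They also sense injury: cytokines of the interleukin-6 family act in them through STAT3, which switches on its own inhibitor Socs3 together with acute-phase genes, and transcription factors of the C/EBP family serve many of the same genes. Newly made collagen is folded and hydroxylated in the endoplasmic reticulum, trimmed outside the cell and then cross-linked by lysyl oxidases, while metalloproteinases and their inhibitors (TIMPs) set how fast it is degraded.

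The total counts of the 4 samples ranged from 54615898 to 76758831. Genes of the mitochondrial genome took 3.84% and 2.98% of counts at 14 weeks and 1.74% and 1.78% at 1 year. Levels are given as CPM, a count relative to the library total, scaled by TMM, a method that corrects for differences in library composition. The cells carried the fibroblast markers of their label at both ages, with Pdgfra at 1209 and 1367 CPM at 14 weeks and 1264 and 1229 CPM at 1 year. Markers of other cells were not equal. The 12 endothelial markers summed to 2585 and 2299 CPM at 14 weeks and 1222 and 1455 CPM at 1 year, the 15 cardiomyocyte markers to 156 and 119 against 22.3 and 53.7 CPM, and the 17 macrophage markers to 77.7 and 90.5 against 45.8 and 38.1 CPM. Xist was at most 0.315 CPM and the Y-linked gene Ddx3y at least 71.7 CPM in all 4 samples, so the ages did not differ in these sex-linked genes.

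The fibroblast samples of 14 weeks stood apart from the other fibroblast samples in properties that do not belong to a pathway. Across genes, each sample's deviation from the mean level was correlated with the GC content of the transcript. The Spearman correlation was -0.31 and -0.30 in the 2 samples of 14 weeks and between 0.0098 and 0.14 in the other 10. The samples of 14 weeks did not stand apart in the same correlation with transcript length. It was 0.080 and 0.074 in them and 0.068, 0.025 and 0.075 at 4 weeks. The samples of 1 year were at -0.25 and -0.17, and a sample of the oldest age was also at -0.17. Sumo2, which encodes a small ubiquitin-like modifier, was at 79.4 and 68.8 CPM at 14 weeks and between 4.36 and 8.85 CPM in the other 10 samples. The mitochondrial gene mt-Co2, which has near-identical copies in the nuclear genome, was at 19.4 and 12.6 CPM at 14 weeks and at most 0.19 CPM in the other 10. Because every difference described here rests on these 2 samples, the calls between the ages are set beside those of a fit with an offset that removed each sample's trend with GC content and transcript length.

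Between the ages, 334 of 18759 genes tested passed an adjusted p under 0.05 (edgeR quasi-likelihood test with Benjamini-Hochberg adjustment), which is 1.78% of them. Of these, 245 were higher at 1 year (1.31% of genes tested) and 89 were lower (0.474%), and 136 and 55 of them changed at least 2-fold. The direction of this split depended on scaling: with library size in place of TMM, 124 were higher and 191 lower, and the median log2 fold change over all genes moved from -0.011 to -0.19. All 334 genes had no overlap between the samples of the 2 ages, but so did 53.4% of all genes tested. Without any one of the 4 samples, between 25 and 102 genes passed, fewest without sample 4 of 14 weeks. Of 82 called genes considered one by one here, 13 passed whichever sample was left out and 33 passed in none of those fits.

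GC content and transcript length moved with the difference. Over 12629 genes of at least 1 CPM on average, the size and sign of the log2 fold change had a Spearman correlation of 0.40 with GC content and -0.24 with transcript length, across genes, which are not independent replicates and share the same 4 libraries. The median log2 fold change was -0.28 in the lowest of 5 equal classes of genes by GC content, -0.12, -0.01 and 0.13 in the next ones and 0.37 in the highest. In the highest class 142 genes were higher and 5 lower, and in the lowest class 4 were higher and 35 lower. With the offset, these correlations were -0.02 and -0.01, and 124 genes passed, 67 higher and 57 lower. Of the 245 genes that were higher, 62 (25.3%) passed again with the offset, and of the 89 that were lower, 47 (52.8%). Passing with the offset does not mean that a call held when 1 sample was left out, which is stated for some genes only.

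**Figure D1:**
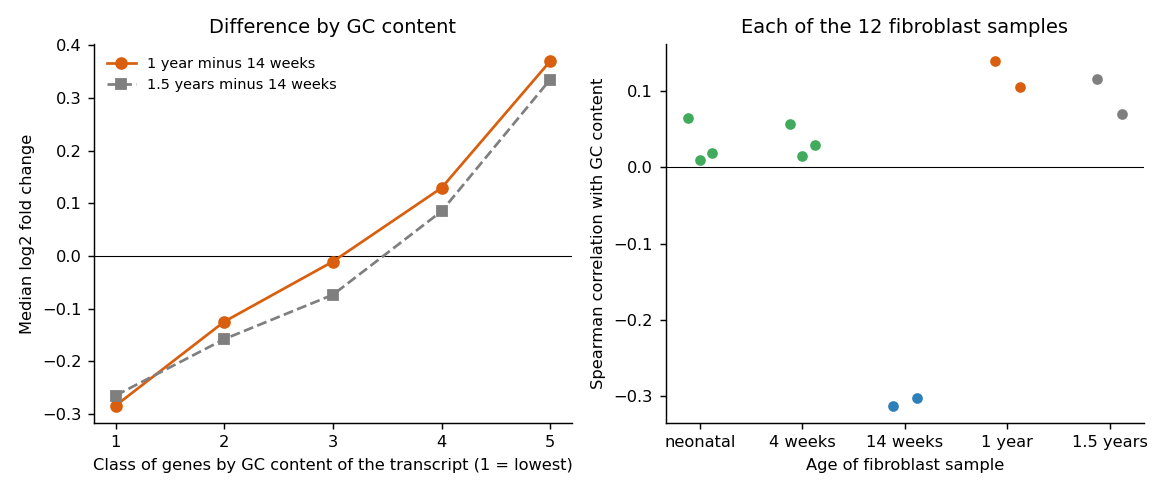
Left, the median log2 fold change against 14 weeks in each of 5 equal classes of genes by transcript GC content, for 1 year (orange circles) and 1.5 years (grey squares), which share the samples of 14 weeks. Right, the Spearman correlation across genes between GC content and a sample's deviation from the mean log2 level, 1 point per fibroblast sample: the 2 samples of 14 weeks lie at -0.31 and -0.30 and the other 10 above 0.

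Genes with near-identical copies formed an uneven share of the calls. A gene was counted as sharing sequence when at least 10% of the 65-base windows of its longest transcript (65 bases is the read length) also occur in a transcript of another gene. This held for 15 of 242 genes that were higher (6.20%), for 35 of 89 that were lower (39.3%) and for 11.7% of all genes tested. Genes that passed in both fits and were not found to share sequence numbered 59 higher and 22 lower. The 59 include 6030419C18Rik and CAAA01147332.1, for which the annotation gave no transcript. Neither the offset nor the search for shared sequence could be applied to them. Counts of genes that share sequence depend on how reads matching several places were treated, so their values are uncertain.

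Genes of the response to cytokines were among those that rose. Cebpb, which encodes a C/EBP transcription factor of the acute-phase response (chr2:167688915-167690418, GRCm38, plus strand), was at 55.9 and 53.8 CPM at 14 weeks and at 335 and 588 CPM at 1 year. The ages did not overlap, and the level at 14 weeks was also below that of 4 weeks, with a mean of 146 CPM. The log2 fold change was 3.07 (SE 0.29, edgeR adjusted p = 0.000662), or 8.42-fold, and it passed in every fit that left out 1 sample and with the offset (log2 2.45, adjusted p = 0.0021).

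Its relative Cebpd, which is induced early by interleukin 6, was at 505 and 619 CPM at 14 weeks and at 1623 and 1597 CPM at 1 year, 2.87-fold higher (edgeR adjusted p = 0.00158). Cebpa, the third member of the family measured, went from 15.8 and 17.5 CPM to 45.4 and 53.7 CPM (edgeR adjusted p = 0.00481) but did not pass with the offset (adjusted p = 0.0529). Cebpd passed with the offset (adjusted p = 0.00358). All members of the family named here were thus higher at 1 year in both samples, and Cebpb and Cebpd in both fits.

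Interleukin 6 and the inhibitors that its signal induces were higher as well. Il6 was at 42.8 and 52.2 CPM at 14 weeks and at 207 and 252 CPM at 1 year, 4.83-fold higher (log2 2.27, SE 0.45, edgeR adjusted p = 0.0244). Socs3, the feedback inhibitor of the interleukin-6 receptor, was at 998 and 1133 CPM against 2975 and 2982 CPM, a 2.80-fold difference (edgeR adjusted p = 0.00269). Its relative Socs1 was at 16.6 and 21.8 CPM against 119 and 80.5 CPM, a 5.19-fold difference (edgeR adjusted p = 0.00247). At 4 weeks the mean of Socs1 was 98.9 CPM, close to its mean of 99.7 CPM at 1 year and above its level at 14 weeks. The STAT-induced kinase gene Pim1 was 3.76-fold higher (edgeR adjusted p = 0.00682) and the growth regulator Myc 3.11-fold higher (edgeR adjusted p = 0.00247). These genes passed with the offset, at adjusted p values of 0.0256 for Il6, 0.0169 for Socs3, 0.0115 for Socs1, 0.0267 for Pim1 and 0.0107 for Myc. Il6 passed in none of the 4 fits that left out 1 sample (largest adjusted p = 0.268).

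**Figure D2:**
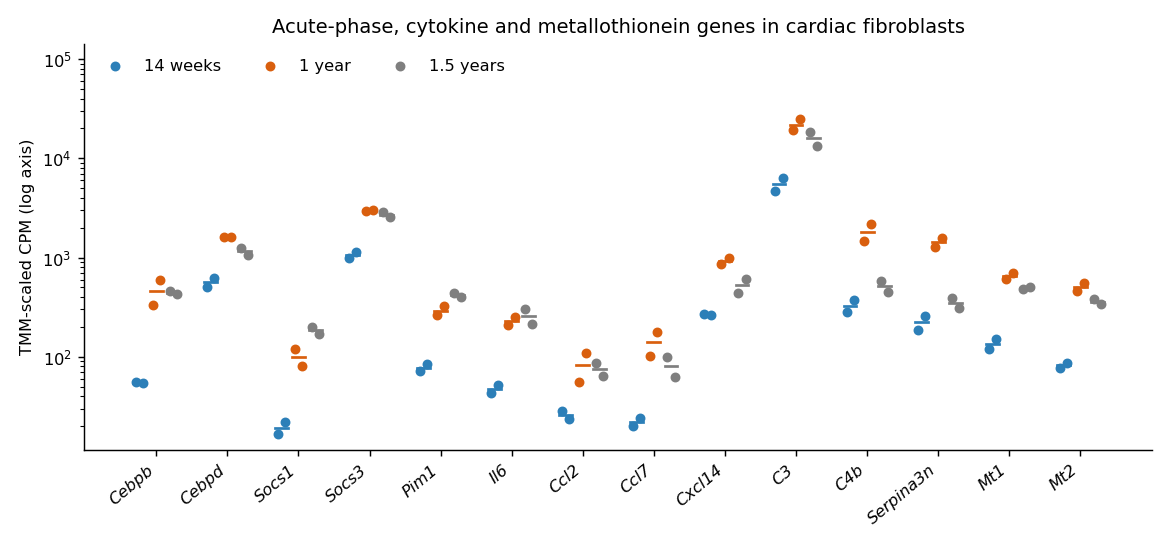
TMM-scaled CPM on a log axis for genes of the cytokine response, complement and metal binding in fibroblasts (14 weeks in blue, 1 year in orange, 1.5 years in grey), with 1 point per sample and a line at the mean of the 2 samples. For each of these genes both samples of 1 year lie above both samples of 14 weeks. At 1.5 years C4b and Serpina3n had log2 fold changes of 0.65 each against 14 weeks.

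The sequence before the start of 3 of these genes is shown because each holds a match to the motif of the factor or metal response it is known for. Sequences are the 250 bases before the RefSeq start on GRCm38.p6, written 5′ to 3′ on the gene's strand, with the match in capitals. Socs3 (chr11:117969367-117969616, minus strand) holds the STAT motif TTCNNNGAA, which begins 154 bases before the start. Il6 (chr5:30012864-30013113, plus strand) holds the C/EBP motif TTGCNNAA on the opposite strand, beginning 128 bases before the start. Mt2 (chr8:94172368-94172617, plus strand) holds 3 matches to the metal response element TGCACNC or TGCGCNC, at 223, 128 and 50 bases before the start, the last one on the opposite strand.
Socs3: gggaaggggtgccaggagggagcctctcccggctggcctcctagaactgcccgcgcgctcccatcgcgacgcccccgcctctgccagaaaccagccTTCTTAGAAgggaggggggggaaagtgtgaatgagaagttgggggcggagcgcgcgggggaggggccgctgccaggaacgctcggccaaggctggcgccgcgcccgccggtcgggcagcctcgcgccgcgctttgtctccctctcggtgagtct
Il6: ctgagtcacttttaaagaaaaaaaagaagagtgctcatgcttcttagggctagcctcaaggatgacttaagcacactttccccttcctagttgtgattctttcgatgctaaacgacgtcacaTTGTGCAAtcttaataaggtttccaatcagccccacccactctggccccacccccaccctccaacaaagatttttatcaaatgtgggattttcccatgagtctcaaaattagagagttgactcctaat
Mt2: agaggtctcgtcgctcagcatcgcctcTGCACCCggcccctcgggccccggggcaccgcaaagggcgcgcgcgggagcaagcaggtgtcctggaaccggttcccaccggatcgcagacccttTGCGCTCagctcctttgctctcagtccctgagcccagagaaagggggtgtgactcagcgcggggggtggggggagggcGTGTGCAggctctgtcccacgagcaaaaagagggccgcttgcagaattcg

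On either strand, TTCNNNGAA occurs in 7.02% of all 32851 windows of this length, TTGCNNAA in 9.56% and the metal response element in 21.4%. Among the 227 windows that matched genes higher at 1 year, which cover 185 genes, the shares were 5.73%, 8.37% and 26.0%. The motifs were therefore about as frequent before the genes that rose as before all genes, and a match is a description of the letters, not of binding.

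Among the 31 chemokine and cytokine genes tested, 8 were higher, none lower and 23 did not pass (edgeR adjusted p under 0.05). Of all genes tested, 1.31% were higher and 0.474% lower. The median log2 fold change of the list was 0.74, beside -0.011 over all genes tested. With the offset 5 passed and the median was 0.81, and with 1 sample left out between 1 and 4 passed. Ccl7, which attracts monocytes, was at 19.9 and 24.1 CPM at 14 weeks and at 102 and 177 CPM at 1 year, 6.35-fold higher (edgeR adjusted p = 0.0274, with the offset 0.0459), but it passed in none of the fits that left out 1 sample (largest adjusted p = 0.276). Ccl2, the main ligand of the monocyte receptor CCR2, was at 28.3 and 23.6 CPM against 55.9 and 110 CPM (edgeR adjusted p = 0.0244, with the offset 0.045). Cxcl14 was at 272 and 264 CPM against 863 and 997 CPM, 3.47-fold higher (edgeR adjusted p = 0.000662, with the offset 0.00358), and it passed whichever sample was left out. Cxcl1, a neutrophil attractant, was 2.44-fold higher and the membrane-bound chemokine gene Cx3cl1 2.85-fold higher, and neither passed with the offset (adjusted p = 0.0557 and 0.0619).

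The same list holds genes of the inhibitors of NF-κB, which NF-κB itself induces. Tnfaip3, which encodes the deubiquitinase A20, was at 43.6 and 37.6 CPM at 14 weeks and at 75.0 and 147 CPM at 1 year, 2.73-fold higher (edgeR adjusted p = 0.0298). Nfkbia, which encodes the inhibitor that holds NF-κB in the cytoplasm, was at 87.1 and 75.1 CPM against 155 and 265 CPM (edgeR adjusted p = 0.0378). The means at 4 weeks and in neonatal samples were 176 and 213 CPM for Nfkbia and 65.1 and 33.8 CPM for Tnfaip3. Nfkbia was thus also higher at both younger ages than at 14 weeks. Nfkbia did not pass with the offset (adjusted p = 0.161), whereas Tnfaip3 did (adjusted p = 0.0332).

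Of 21 complement genes tested, 3 were higher and none lower, and the median log2 fold change was 0.00 (edgeR adjusted p under 0.05). The shares over all genes tested were 1.31% higher and 0.474% lower. C3, the central protein of the complement cascade (chr17:57203970-57228136, minus strand), was at 4714 and 6299 CPM at 14 weeks and at 19151 and 24623 CPM at 1 year. Both samples of 1 year were far above both of 14 weeks, a 3.97-fold difference (log2 1.99, SE 0.40, edgeR adjusted p = 0.0261), and at 4 weeks the mean was 1047 CPM. C3 passed with the offset (adjusted p = 0.045) and in none of the fits that left out 1 sample (largest adjusted p = 0.285). C4b was at 283 and 369 CPM against 1458 and 2154 CPM, 5.54-fold higher (edgeR adjusted p = 0.00243, with the offset 0.00489), although 27.5% of its windows are shared with another gene. Serping1, the inhibitor of the first complement component, was 1.65-fold higher (edgeR adjusted p = 0.0399) and did not pass with the offset (adjusted p = 0.122). Serpina3n, an acute-phase protease inhibitor outside this list, was at 184 and 260 CPM against 1276 and 1589 CPM, 6.46-fold higher (edgeR adjusted p = 0.00205, with the offset 0.00499).

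The metallothioneins, small proteins that bind zinc and copper and are induced by metals, glucocorticoids and cytokines, were the next pair. Mt1 was at 119 and 150 CPM at 14 weeks and at 601 and 694 CPM at 1 year, 4.81-fold higher (log2 2.27, SE 0.35, edgeR adjusted p = 0.00798). Mt2, whose upstream sequence is given above, was at 77.2 and 87.4 CPM against 456 and 559 CPM, 6.17-fold higher (edgeR adjusted p = 0.0298). Mt1 passed with the offset (adjusted p = 0.0294) and Mt2 did not (adjusted p = 0.106). Mt2 also passed in none of the fits that left out 1 sample (largest adjusted p = 0.276).

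Of 36 immediate early and heat shock genes tested, 7 were higher and none lower (edgeR adjusted p under 0.05). The shares over all genes tested were 1.31% and 0.474%. The median log2 fold change of the list was 0.65. Immediate early genes respond within minutes to growth factors and to tissue dissociation. Myc and Socs3, described above, are 2 of the 7 and the ones that also passed with the offset. The AP-1 genes Junb, at 2408 and 2496 CPM against 4568 and 4985 CPM, and Jund, at 1108 and 1164 CPM against 2939 and 2545 CPM, passed without the offset, with edgeR adjusted p values of 0.0107 and 0.00381. Egr2, Ier2 and Klf2 were 2.56-fold, 1.83-fold and 2.11-fold higher and did not pass with the offset. The founding members of the class gave no call, with Fos at 5338 and 5463 CPM against 5778 and 5899 CPM (edgeR adjusted p = 0.971) and Jun at a log2 fold change of 0.16 (edgeR adjusted p = 0.885).

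Most matrix genes did not pass, as was true of all genes tested, of which 1.31% were higher and 0.474% lower. Of 43 collagen genes tested, 3 were higher and none lower, and the median log2 fold change was 0.40, or 0.27 with the offset (edgeR adjusted p under 0.05). Collagens took 3.87% and 3.85% of all counts at 14 weeks and 5.99% and 4.74% at 1 year, a mean of 3.86% ± 0.013 (SD, n = 2) against 5.37% ± 0.88 (SD, n = 2). The difference of 1.51 percentage points gave an exact two-sided permutation p of 0.333, which is the smallest that 2 samples against 2 can give.

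Types I and III collagen form the main interstitial fibrils of the heart. Col1a1 was at 4363 and 4520 CPM at 14 weeks and at 9305 and 6685 CPM at 1 year (log2 0.85, edgeR adjusted p = 0.123). Col1a2, which encodes the partner chain of type I collagen, was at 3994 and 4121 CPM against 7424 and 5841 CPM (edgeR adjusted p = 0.116). Col3a1 was at 6427 and 6177 CPM against 15334 and 10292 CPM (log2 1.02, edgeR adjusted p = 0.0869). The ages did not overlap in any of the 3, and sample 4 of 1 year was the highest for each, but none passed.

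Col5a2, which encodes a chain of the type V collagen that nucleates fibrils (chr1:45374321-45503282, minus strand), was at 704 and 705 CPM at 14 weeks and at 1500 and 1130 CPM at 1 year. The 1.87-fold difference passed (log2 0.90, SE 0.19, edgeR adjusted p = 0.0332) and passed with the offset (adjusted p = 0.0459). The mean of Col5a2 was 1560 CPM at 4 weeks and 1875 CPM in neonatal samples, both above its mean of 1315 CPM at 1 year. The other calls were Col16a1, a fibril-associated collagen, 2.37-fold higher (edgeR adjusted p = 0.0162), and Col18a1, the source of endostatin, 1.61-fold higher (edgeR adjusted p = 0.0400). Neither passed with the offset, at adjusted p values of 0.176 and 0.681.

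Of 28 genes of collagen folding and processing, 4 were higher and none lower (edgeR adjusted p under 0.05, median log2 fold change 0.46). They are Serpinh1, the collagen chaperone HSP47, at 946 and 890 CPM against 2247 and 1904 CPM (edgeR adjusted p = 0.0188), and Pcolce, which speeds the trimming of procollagen, at 805 and 952 CPM against 1584 and 1479 CPM (edgeR adjusted p = 0.0364). The hydroxylase genes Plod3 and P3h3 were 1.97-fold and 1.91-fold higher. None of the 4 passed with the offset, where their adjusted p values ran from 0.109 to 0.259.

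Of 5 lysyl oxidase genes, 2 were higher. Lox was at 98.0 and 110 CPM at 14 weeks and at 316 and 227 CPM at 1 year, 2.61-fold higher (log2 1.39, SE 0.28, edgeR adjusted p = 0.0272), and passed with the offset (log2 1.61, adjusted p = 0.024). Loxl1, which serves elastic fibres, was at 1023 and 1120 CPM against 2718 and 2147 CPM (edgeR adjusted p = 0.0184) and did not pass with the offset (adjusted p = 0.246). Lox was again close to the level of 14 weeks at 1.5 years, with 104 and 71.5 CPM. The mean of Lox was 93.7 CPM at 4 weeks and 331 CPM in neonatal samples.

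Matricellular proteins, which signal to cells rather than carry load, gave 4 genes higher of 24 and none lower (edgeR adjusted p under 0.05). Tnc, which encodes tenascin C, a protein of injured and developing tissue, was at 19.3 and 25.3 CPM at 14 weeks and at 188 and 86.3 CPM at 1 year. The samples of 1 year were unequal but both above those of 14 weeks, a 6.13-fold difference (log2 2.62, SE 0.46, edgeR adjusted p = 0.0143). Thbs1, which encodes the TGF-β activator thrombospondin 1, was at 565 and 603 CPM against 1573 and 1974 CPM (edgeR adjusted p = 0.0111). The means at 4 weeks and in neonatal samples were 37.8 and 314 CPM for Tnc and 1147 and 1895 CPM for Thbs1. Thbs1 was thus also higher at both younger ages than at 14 weeks. Tnc and Thbs1 passed with the offset, at adjusted p values of 0.0266 and 0.0201. Cilp, at 769 and 999 CPM against 3177 and 1744 CPM, and Thbs3, at 167 and 182 CPM against 372 and 276 CPM, passed only without it. Of 22 genes of activated fibroblasts and myofibroblasts tested, 4 were higher and none lower (edgeR adjusted p under 0.05, median log2 fold change 0.58). Over all genes tested, 1.31% were higher. With the offset 3 of the list passed, all higher. Postn, a marker of activated fibroblasts, was at 620 and 577 CPM against 2376 and 1109 CPM and missed the threshold (edgeR adjusted p = 0.0532). Acta2, another marker, was at 98.4 and 65.3 CPM against 61.5 and 59.8 CPM (edgeR adjusted p = 0.824).

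**Figure D3:**
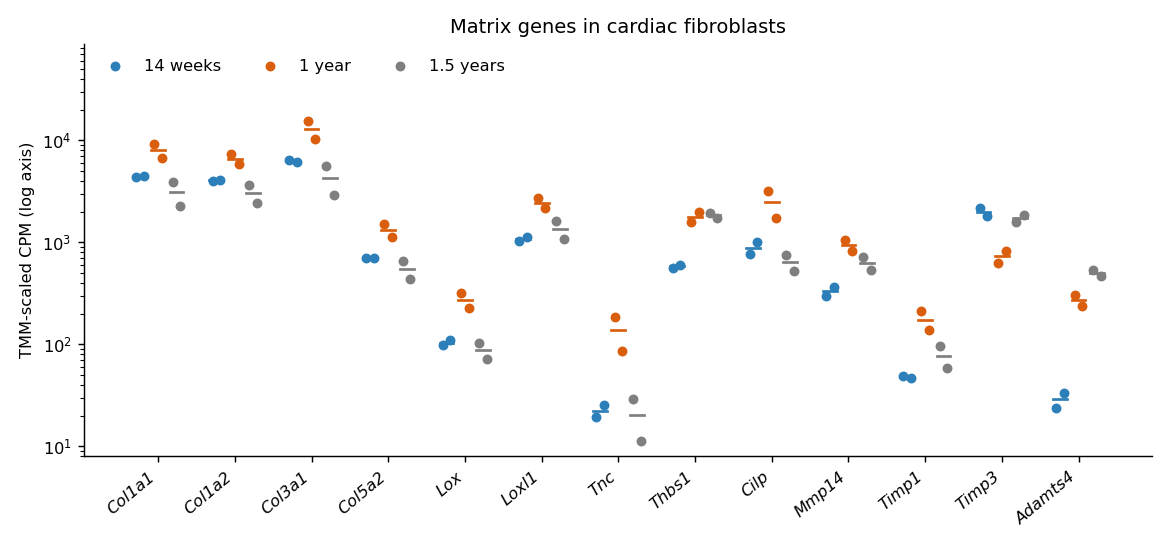
TMM-scaled CPM on a log axis for matrix genes in fibroblasts (14 weeks in blue, 1 year in orange, 1.5 years in grey), with 1 point per sample and a line at the mean of the 2 samples. Timp3 lies lower at 1 year than at 14 weeks and the other 12 genes higher, and Tnc and Lox at 1.5 years lie near their levels at 14 weeks.

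Proteases and their inhibitors moved in both directions. Adamts4, an aggrecanase that cleaves versican (chr1:171250421-171260637, plus strand), was at 24.1 and 33.7 CPM at 14 weeks and at 307 and 238 CPM at 1 year, 9.43-fold higher (log2 3.24, SE 0.42, edgeR adjusted p = 0.00342), and passed with the offset (adjusted p = 0.0063). At 4 weeks the mean of Adamts4 was 197 CPM, also above its level at 14 weeks. Mmp14, the membrane-bound collagenase, was at 301 and 364 CPM against 1058 and 826 CPM, 2.83-fold higher (edgeR adjusted p = 0.0144, with the offset 0.0408). The mean of Mmp14 was 599 CPM at 4 weeks and 1054 CPM in neonatal samples, also above its level at 14 weeks. Mmp19 was 1.70-fold higher (edgeR adjusted p = 0.0349, with the offset 0.0449), and Mmp3, at 86.8 and 72.8 CPM against 163 and 230 CPM, did not pass (edgeR adjusted p = 0.149). Adamts9 was lower, at 62.7 and 58.9 CPM against 18.9 and 21.1 CPM (edgeR adjusted p = 0.0409), and did not pass with the offset (adjusted p = 0.089). Mmp19 and Adamts9 passed in none of the fits that left out 1 sample (largest adjusted p = 0.386 and 0.341).

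The inhibitors were opposite to each other. Timp1, which is induced by cytokines, was at 48.7 and 46.8 CPM at 14 weeks and at 211 and 137 CPM at 1 year, 3.65-fold higher (edgeR adjusted p = 0.0397, with the offset 0.142), and it passed in none of the fits that left out 1 sample. Timp3, which is bound to the matrix (chr10:86300372-86349506, plus strand), was at 2178 and 1800 CPM against 628 and 830 CPM, 2.73-fold lower (log2 -1.45, SE 0.18, edgeR adjusted p = 0.00247). Timp3 passed whichever sample was left out and with the offset (adjusted p = 0.00588). Timp2 was at 2130 and 2162 CPM against 2731 and 2533 CPM and did not pass (edgeR adjusted p = 0.358).

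Of 22 elastic fibre genes, 6 were higher and 1 lower (edgeR adjusted p under 0.05). The 6 were Emilin1, Efemp2, Ltbp2, Ltbp3, Fbln1 and Fbln2, with log2 fold changes from 0.76 to 1.44, and none of them passed with the offset. Emilin1, which sits between elastin and microfibrils, had the largest difference, from 275 and 291 CPM to 842 and 692 CPM (edgeR adjusted p = 0.0107). Hmcn1, which encodes the large extracellular protein hemicentin 1, was at 47.0 and 39.2 CPM at 14 weeks and at 6.17 and 13.6 CPM at 1 year, 4.37-fold lower (edgeR adjusted p = 0.00894), and passed with the offset (adjusted p = 0.0201).

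In the signalling lists of the matrix most genes did not pass, beside 1.31% higher and 0.474% lower over all genes tested. In the TGF-β list 2 of 28 genes were higher and none lower (median log2 fold change 0.15), and both, Ltbp2 and Ltbp3, are the latency proteins counted above. The receptor effector Smad1 was at 44.7 and 38.1 CPM against 29.3 and 40.3 CPM (edgeR adjusted p = 0.830). Among IGF and FGF ligands and binding proteins 3 of 32 were higher, namely Igfbp4, Igfbp6 and Igfbp7, which bind insulin-like growth factors. Igfbp4 was at 1298 and 1315 CPM against 2859 and 2860 CPM and was the one of the 3 that passed with the offset (edgeR adjusted p = 0.00999, with the offset 0.0357). Gdf6, a ligand of the BMP family, was 3.55-fold higher (edgeR adjusted p = 0.0157, with the offset 0.0385), and Frzb, a secreted Wnt inhibitor, 2.16-fold higher (edgeR adjusted p = 0.0343, with the offset 0.045).

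**Figure D4:**
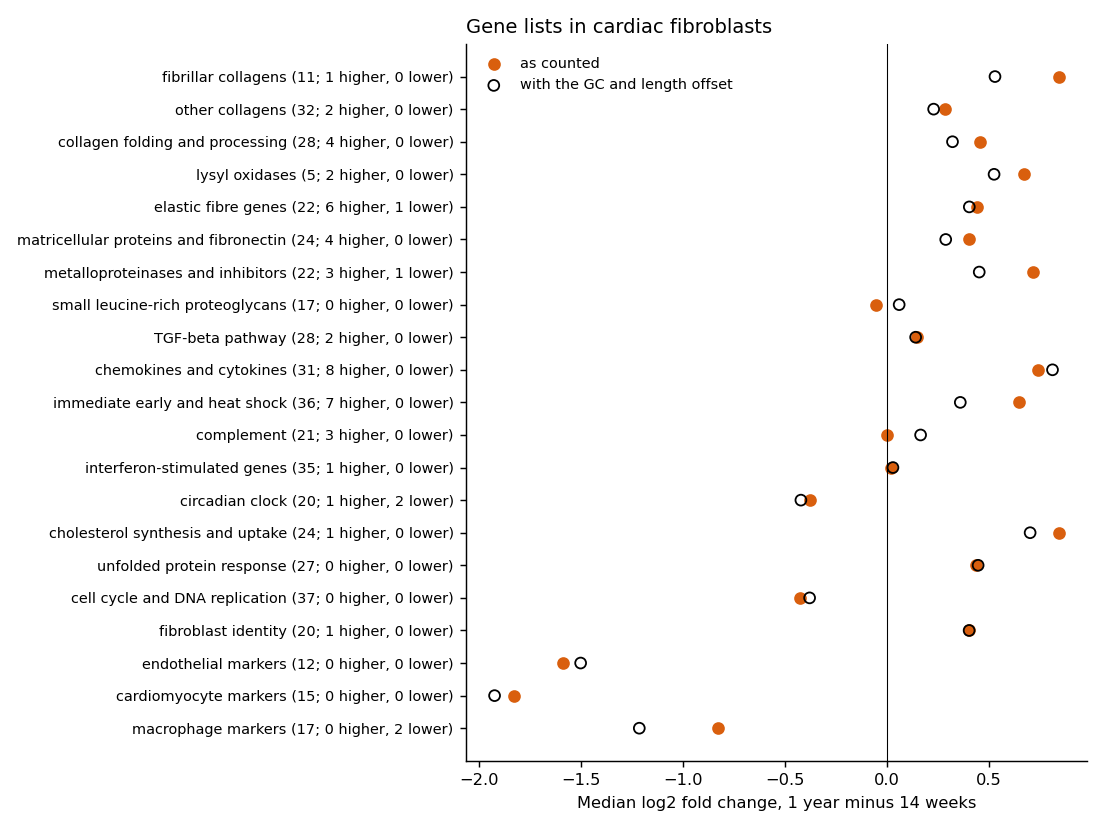
The median log2 fold change of each gene list between 1 year and 14 weeks, as counted (orange) and with the offset for GC content and transcript length (open circles); each label gives the number of genes tested and the numbers higher and lower at an edgeR adjusted p under 0.05. Fibrillar collagens are at 0.85 and 0.53 and chemokines and cytokines at 0.74 and 0.81 without and with the offset, and the markers of endothelial cells, cardiomyocytes and macrophages lie below 0.

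Gfap, the intermediate filament gene of glia that is also induced in some activated mesenchymal cells (chr11:102887336-102900912, minus strand), had no count in either sample of 14 weeks and was at 12.9 and 13.4 CPM at 1 year. Its level was at least 280-fold higher at 1 year, against a floor of 3 counts per sample that covers counting error only (edgeR adjusted p = 0.00677, with the offset 0.0129). At 4 weeks and in neonatal samples it was also 0 CPM, and at 1.5 years it was at 17.5 and 17.4 CPM. It was the only 1 of 14 glial and neural markers tested that passed: Sox10 was under 1 CPM in all 4 samples. In whole heart the mean was 0.00 CPM at 14 weeks and 0.175 CPM at 1 year.

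Fewer genes fell, and several of them encode growth and transport proteins of young tissue. Nrk, a kinase gene of embryonic mesenchyme on the X chromosome (chrX:138914430-139010532, plus strand), was at 18.1 and 12.5 CPM at 14 weeks and at 1.45 and 0.419 CPM at 1 year, 16.2-fold lower (log2 -4.02, SE 0.54, edgeR adjusted p = 0.00381). Its mean was 703 CPM in neonatal samples and 35.9 CPM at 4 weeks, so the mean was lower at each later of these ages. At 1.5 years the mean of Nrk was 2.95 CPM, above that of 1 year. Xist was at least 137 CPM in every fibroblast sample of an age other than 14 weeks and 1 year. Age and sex therefore cannot be told apart across these ages. Slc38a4, an imprinted amino acid transporter gene, was at 19.2 and 12.8 CPM against 2.28 and 3.21 CPM, 5.84-fold lower (edgeR adjusted p = 0.00158). Both passed whichever sample was left out and with the offset (adjusted p = 0.0108 and 0.00418).

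The other large falls were of genes of lower level. Sncaip, which encodes a partner of α-synuclein, was 5.30-fold lower, the kinase gene Hunk 4.16-fold lower and the scaffold gene Frmd4b 4.01-fold lower, with edgeR adjusted p values of 0.0152, 0.0241 and 0.00704. All 3 passed with the offset. Syn3, Lrrc55 and Necab1 were 5.92-fold, 4.80-fold and 3.97-fold lower and did not pass with it. Mki67, the proliferation marker, was at 6.46 and 6.45 CPM at 14 weeks and at 2.96 and 1.39 CPM at 1 year and did not pass (edgeR adjusted p = 0.126), and none of the 37 cell cycle genes did.

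Of 20 circadian clock genes, 1 was higher and 2 lower (edgeR adjusted p under 0.05), beside 1.31% and 0.474% of all genes tested. Nr1d1, which encodes the clock repressor REV-ERBα (chr11:98767932-98775333, minus strand), was at 629 and 520 CPM at 14 weeks and at 145 and 146 CPM at 1 year, 3.94-fold lower (log2 -1.98, SE 0.39, edgeR adjusted p = 0.0244), and passed with the offset (adjusted p = 0.0209). At 4 weeks the mean of Nr1d1 was 167 CPM, and none of the 10 fibroblast samples of other ages exceeded 222 CPM. Hlf, a factor that binds D-box elements, was 2.32-fold lower (edgeR adjusted p = 0.0283), and Nfil3, the repressor that competes for them, was at 13.6 and 15.7 CPM against 52.5 and 65.2 CPM, 4.02-fold higher (edgeR adjusted p = 0.0156). Neither passed with the offset (adjusted p = 0.0933 for Hlf and 0.0545 for Nfil3). The genes of the same loop that did not pass had fold changes on either side: log2 -1.49 for Nr1d2, -1.58 for Dbp and -1.20 for Tef, and 1.03 for Arntl and 1.13 for Npas2. None of the 3 calls held when any one of the 4 samples was left out, and the time of day at which hearts were taken is not given in the sources used here.

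**Figure D5:**
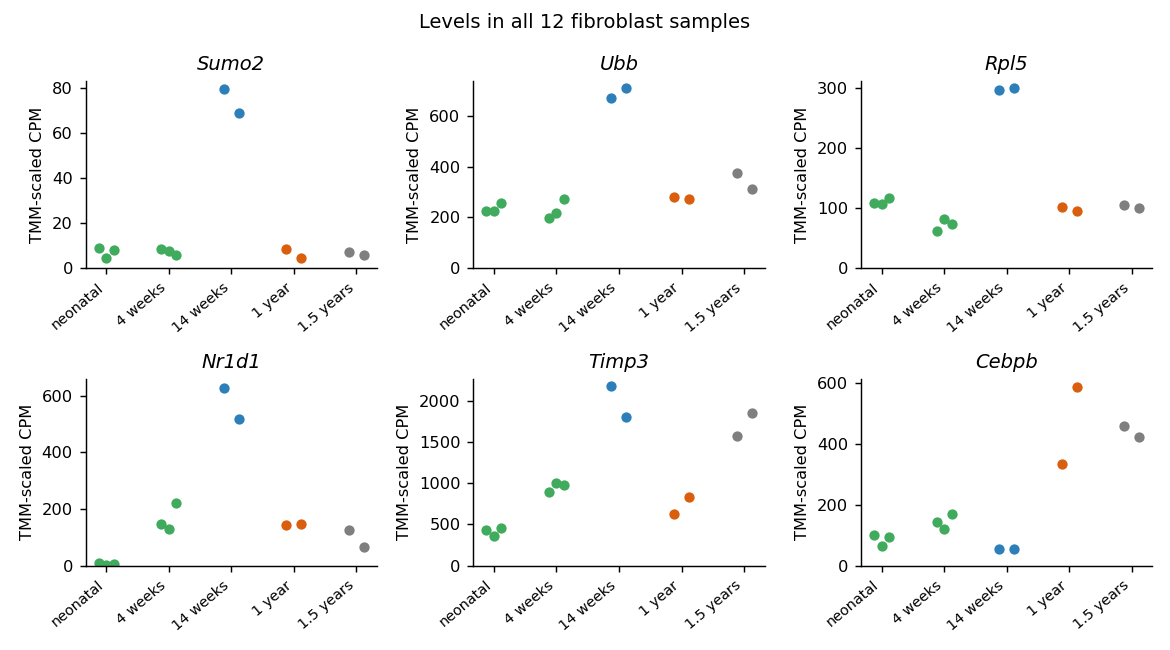
TMM-scaled CPM (linear axes from 0) of 6 genes in each of the 12 fibroblast samples, from neonatal to 1.5 years. Sumo2, Ubb, Rpl5 and Nr1d1 are high in the 2 samples of 14 weeks alone. Cebpb is higher at 1 year and 1.5 years than at each younger age, and it is also lowest in the 2 samples of 14 weeks. Timp3 is lower at 1 year than at 14 weeks or at 1.5 years.

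Of the 17 macrophage markers, whose summed level is given above, 2 were lower and none higher (edgeR adjusted p under 0.05). The shares over all genes tested were 0.474% lower and 1.31% higher. Mrc1, the mannose receptor of resident macrophages, was at 10.2 and 6.55 CPM at 14 weeks and at 1.39 and 0.887 CPM at 1 year, 7.31-fold lower (edgeR adjusted p = 0.00569, with the offset 0.0155). Cd163, the haemoglobin scavenger receptor, was at 4.03 and 3.70 CPM against 0.00 and 0.016 CPM, at least 84.7-fold lower (edgeR adjusted p = 0.0107, with the offset 0.0201). Of the other defining markers, Csf1r was at 6.25 and 8.40 CPM against 2.61 and 2.53 CPM and Lyz2 at 13.1 and 18.1 CPM against 6.47 and 3.95 CPM, and neither passed. In a sorted bulk sample, fewer cells of a type and less RNA per cell cannot be told apart. The part of these cells in the genes that rose was not tested. The epicardial and mesothelial markers summed to 123 and 136 CPM at 14 weeks and to 310 and 227 CPM at 1 year, but none of the 9 tested passed, and Wt1, a defining one, was at 9.77 and 5.76 CPM against 1.53 and 3.99 CPM.

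A last set of genes that fell encodes abundant proteins whose genes have many copies. Ubb, which encodes polyubiquitin, was at 673 and 715 CPM against 282 and 273 CPM (log2 -1.32, edgeR adjusted p = 0.00274, with the offset 0.00117). Rpl5, a protein of the large ribosomal subunit, was at 296 and 299 CPM against 102 and 94.1 CPM, and at most 116 CPM in the other 10 fibroblast samples. Sumo2, Ubb, Rpl5, Rps6 and Gapdh shared between 24.6% and 58.5% of their windows with another gene and mt-Co2 99.5%. Among 86 cytosolic ribosomal protein genes tested, 9 were higher and 6 lower, beside 1.31% and 0.474% of all genes tested. The median log2 fold change was 0.081, and 66 of the 86 shared sequence. With the offset 2 were higher and 10 lower and the median was -0.091, so the direction depended on the offset.

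Metabolic genes were few among the calls. Hk2, the insulin-regulated hexokinase, was at 14.3 and 19.5 CPM at 14 weeks and at 66.7 and 81.6 CPM at 1 year, 4.39-fold higher (edgeR adjusted p = 0.0385, with the offset 0.0715). At 4 weeks the mean of Hk2 was 80.3 CPM, also above its level at 14 weeks. Slc16a3, the lactate exporter MCT4, was at 6.75 and 7.33 CPM against 19.1 and 28.7 CPM and passed in both fits (edgeR adjusted p = 0.00968, with the offset 0.0353). Cyp51, an enzyme of cholesterol synthesis, was at 7.88 and 7.19 CPM against 33.5 and 21.6 CPM (edgeR adjusted p = 0.0352, with the offset 0.0471), the one call among 24 genes of that pathway, whose median log2 fold change was 0.85. No gene of the unfolded protein response passed, of 27 tested, with a median log2 fold change of 0.44, and 1 of 35 interferon-stimulated genes did.

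The samples of 1.5 years were set beside the same samples of 14 weeks, so the 2 comparisons share their controls. At 1.5 years 2.72% of all genes tested passed. Cebpb, Socs1, Pim1 and Adamts4 had log2 fold changes of 3.01, 3.26, 2.44 and 4.11 at 1.5 years, each of which passed. Of the matrix genes, Thbs1 had a log2 fold change of 1.66 at 1.5 years, P3h3 of 1.00, Plod3 of 0.74 and Col18a1 of 0.67, and these passed (edgeR adjusted p from 0.00281 to 0.0462). Mmp14 had a log2 fold change of 0.91, Serpinh1 of 0.71 and Col16a1 of 0.66, and none of the 3 passed. Col5a2 was at -0.36, Tnc at -0.15, Lox at -0.25 and Cilp at -0.47 on the same scale, and none of these passed. Collagens took 3.43% and 2.43% of counts at 1.5 years. The samples of 1.5 years differ from those of 1 year in the sex-linked genes, with Xist at a log2 fold change of 13.1 against 14 weeks, so age and sex cannot be told apart there.

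In whole heart, 175 of 17995 genes passed between the same ages (0.972%). Of the 245 genes higher in fibroblasts, 2 passed in the same direction in whole heart and 4 in the opposite one, and of the 89 lower, none and 2. C4b passed in both, with a mean of 9.85 CPM in hearts of 14 weeks and 45.4 CPM in hearts of 1 year (edgeR adjusted p = 0.00132). An interaction term compared the change between fibroblasts and whole heart, and 355 of 20650 genes passed (1.72%), among them 77 of the 245 and 38 of the 89. The 77 and 38 were counted among genes chosen by the fibroblast contrast, which is part of the interaction, so they are no independent result. With the offset 265 genes passed the interaction test, and the values of single genes given here are without it. The smallest adjusted p values among the genes called in fibroblasts were those of Gm16378, Cebpb, Phlda1, H3f3a and Tnfrsf12a. Cebpb was at a mean of 90.5 CPM in hearts of 14 weeks and 49.6 CPM at 1 year, and its log2 fold change was 3.99 higher in fibroblasts (SE 0.44, edgeR adjusted p = 4.41e-05). Serpinh1 fell in whole heart (log2 -0.84, edgeR adjusted p = 0.015) and rose in fibroblasts. Gm16378, which has 32.7% of its windows shared, was at 2.75 and 1.91 CPM in fibroblasts of 14 weeks and between 20.4 and 35.3 CPM in the other 10 fibroblast samples.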

How the data were processed

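RNA-Seq was analysed in 27 samples, of which the 4 fibroblast samples of 14 weeks and 1 year form the comparison and the other 8 fibroblast samples entered the same fit. The authors mapped single-end reads of 65 bases to mm10 with STAR 2.5.3a and deposited the raw counts per gene that STAR's gene counting gave, without normalization, so reads that match several places are not counted. The annotation and the strand setting are not given in the sources used here, so overlapping and antisense genes cannot be told apart. The study describes 3 sets of fibroblasts per age, whereas the labels give 2 at 14 weeks and later, and no pair of samples of one group held identical counts.

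Genes were kept with filterByExpr, scaled by TMM and tested with edgeR 4.0.16 (glmQLFit and glmQLFTest, R 4.3.3), with age as the only factor and Benjamini-Hochberg adjustment over 18759 genes. The common biological coefficient of variation was 87.9% over the 12 samples and 47.4% with the 2 ages alone. The SE was taken from the size of the log2 fold change and its F statistic. The tissue difference was an interaction over all samples. Levels are TMM-scaled CPM. For the offset, each sample's trend of log2 CPM (prior count 2) with GC content and then with length of the longest transcript (GENCODE M21, GRCm38, 95.4% of symbols found) was subtracted. Upstream sequences are from RefSeq, with 1 window for each gene printed. Where no sample of an age exceeded 3 counts, the fold was bounded against that floor, which covers counting error only.

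The comparison and the gene lists were chosen with earlier results of these data known. Named genes are the 12 largest rises and falls past the threshold among protein-coding genes with no overlap and a mean of 10 CPM, the called members of each list with up to 4 others of high level, genes the study names, markers used in a check, and the 5 smallest interaction p values. The members of lists that are named without passing were in part picked for their role, after their values were seen.

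Alternatives were DESeq2 1.42.0, other size factors, other filters, a 2-fold minimum, fewer ages, the replicate number as a block, offsets, and samples or genes left out. The fit of the 2 ages with the offset, the tissue difference with the offset and the fit without genes that share sequence were chosen after seeing the data. On simulated data with 200 genes changed 4-fold, the fit recovered 62% of them with 6.06% false calls among 18538 genes. With a GC trend added to the simulated samples of 1 year, 24.0% of calls were false without the offset and 6.25% with it. In the data it was the samples of 14 weeks that stood apart in GC trend. Tables and plots were made with python 3.11.15, pandas 2.3.3, numpy 2.4.6, numba 0.67.0 and matplotlib 3.10.9. Some single-gene results are not reported here.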

Additional observations from a re-analysis of the deposited data

Results flagged for a closer look

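The difference between the ages was not the same in fibroblasts and whole heart for 37 of the 91 named genes, by the interaction test (edgeR adjusted p under 0.05). Over all genes tested the share was 1.72%. Of the named genes, 82 had passed in fibroblasts, and the interaction holds that same contrast of the same samples. A high share is therefore partly built in by the choice of genes. The values are the log2 fold change in fibroblasts minus that in whole heart. Among genes of transcription and cytokine response it was 3.99 for Cebpb, 2.09 for Pim1, 1.32 for Cxcl14, 2.04 for Cx3cl1, 1.61 for Jund, 4.51 for Egr2, 1.62 for Klf2, 3.24 for Nfil3, 3.08 for Tnfrsf12a and 2.64 for Phlda1. Among matrix genes it was 5.59 for Adamts4, 2.88 for Thbs1, 1.61 for Loxl1, 1.79 for Mmp14, 2.07 for Serpinh1, 1.16 for Plod3, 1.30 for Col1a1, -1.76 for Timp3 and -2.47 for Hmcn1. Col1a1 did not pass in either tissue alone. Among genes of metabolism, metal binding and antigen presentation it was 2.31 for Mt1, 2.80 for Hk2, 2.70 for Cyp51 and 1.06 for Tapbp, and among the clock genes -2.53 for Nr1d1 and -1.59 for Hlf. For 2 other genes that fell in fibroblasts it was -4.18 for Nrk and -2.40 for Frmd4b.

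For the macrophage markers it was -3.42 for Mrc1 and -8.999 for Cd163, and for the nuclear RNA gene Neat1 -3.25. The value of Cd163 and that of mt-Co2 below rest on fibroblast samples with almost no counts, so their size depends on the prior count and is no bound. In the genes that stood apart in the fibroblast samples of 14 weeks it was -3.92 for Sumo2, -9.79 for mt-Co2, -1.44 for Ubb, -2.06 for Rpl5, -1.44 for Rps6, -1.97 for H3f3a and 3.50 for Gm16378. In whole heart, the 6 samples of both ages had 4.86 to 9.18 CPM of Sumo2, so its high level at 14 weeks was in fibroblast samples.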

How the results depend on the processing

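No named gene that passed changed direction under any alternative run. None of them overlapped between the ages, so a change of direction was unlikely from the outset. Of the 82 named genes that passed, 40 also passed in every other alternative that tested them, apart from left-out samples and the block. The genes higher and lower at 1 year numbered 743 and 419 with DESeq2, 45.0% of whose calls were false in the simulation, 124 and 191 with library size only, 393 and 176 with at least 10 counts in every sample, 136 and 55 with a 2-fold minimum, 1157 and 847 with only the 2 ages fitted and 736 and 340 with the 3 adult ages. They numbered 84 and 52 with the GC offset, 67 and 57 with the GC and length offset, and 643 and 653 with that offset and only the 2 ages, of which 261 were among the 334. Leaving out 1 sample gave between 13 and 82 higher and between 12 and 20 lower. The median-of-ratios factors, no filter, the length offset, the removal of mitochondrial genes and the removal of genes that share sequence kept both counts within 1.5 times. With the replicate number as a block, 0 genes were higher and 0 lower, with and without the offset, while 1633 had an unadjusted p under 0.05 without it. Samples of the same number did not deviate together (correlations from -0.032 to 0.036), the compared ages share number 4 alone, and the numbers therefore do not pair the samples. Genes differing between the tissues numbered 199 with library size only and 1598 with only the 2 ages fitted. The collagen share differed by between 0.881 and 2.13 percentage points when 1 sample was left out. The pair of samples per age limits every p value here.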

Other observations

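Of 52 nuclear-encoded genes of the respiratory chain tested, 3 were higher and none lower at 1 year, with a median log2 fold change of 0.35, or 0.17 with the offset (edgeR adjusted p under 0.05). The shares over all genes tested were 1.31% higher and 0.474% lower. Genes of the mitochondrial genome went the other way. Of 15 tested, 14 had a negative log2 fold change and 1 passed, lower at 1 year. Their median was -1.10, or -0.76 with the offset, and 7 of them shared sequence. Uqcrq, a small subunit of complex III, was at 15.4 and 11.4 CPM at 14 weeks and at 35.5 and 35.7 CPM at 1 year (edgeR adjusted p = 0.012), and it passed with the offset (adjusted p = 0.0332). Of 8 nuclear-retained long RNAs tested, Neat1, the scaffold of paraspeckles, passed, at 143 and 153 CPM against 51.5 and 64.3 CPM (edgeR adjusted p = 0.0064). Malat1 was at 311 and 669 CPM against 153 and 231 CPM and did not pass (edgeR adjusted p = 0.274). Tapbp, which loads peptides onto MHC class I, was the 1 of 21 antigen presentation genes that passed, at 214 and 234 CPM against 462 and 463 CPM (edgeR adjusted p = 0.00243). Small leucine-rich proteoglycans, among them decorin, gave no call in 17 genes tested, with a median log2 fold change of -0.053.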
